A study of Homo sapiens with 18 samples.

Results

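GFP low Raji cells at 72 h were compared with GFP low Raji cells at 24 h, which uses 6 of the 18 RNA libraries of the series, 3 at each time. The libraries were taken by the GFP level and the time in their labels and in the names of the deposited columns, and all genes were tested. Raji is an established human line from a Burkitt lymphoma, a tumour of germinal centre B cells. Per the series' description, SMARCA4 protein was removed with an auxin-inducible degron, a tag through which auxin directs a protein to be broken down. All groups share the genotype label Smarca4+/+. No agent or dose is named for a single library. The 6 column names of the unnumbered library set join GFP to BRG1, another name of SMARCA4, and the other 12 name GFP alone. Beyond this, the sources used here do not describe what GFP reports, how the cells were sorted or the event from which the hours run. Further groups of 3 libraries each, GFP low at 48 h, GFP high at 72 h and GFP high at 24 h, stand beside the comparison. The 3 libraries of a group belong to 3 library sets, 1 without a number in the column names, here called unnumbered, and sets 1 and 2, and values below are given in that order.

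SMARCA4, also called BRG1, is the ATPase of the BAF (SWI/SNF) complexes, which slide nucleosomes and keep enhancers open. In the germinal centre, B cells divide and mutate their antibody genes in the dark zone and are selected in the light zone, where signals from the antigen receptor and from CD40 switch on NF-kB and its targets. Growth signals also set how many ribosomes and how much respiratory chain a cell makes.

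Libraries held 27257876 to 55419458 counts in genes. On the first principal component of all 18 libraries (30.03% of the variance) scores of 42.19 to 49.81 set the 3 GFP low libraries of 24 h apart, and no other library scored above 16.23. Counts for most gene groups are therefore also given for GFP low cells at 72 h against 48 h, which leaves those 3 libraries out. Mitochondrial genes took 3.81% to 3.98% of counts in GFP low libraries at 72 h and 3.48% to 3.64% at 24 h. Of 9 defining B cell markers, all were above 1 CPM (counts per library total, scaled between libraries) in these cells, and their summed level was 3783 to 3967 CPM at 72 h and 4490 to 4699 CPM at 24 h. Most markers of other lineages were low. The tested T cell markers, described below, summed to 109 to 111 CPM at 72 h and 47.8 to 48.7 CPM at 24 h. Of 10 myeloid, 7 erythroid and 10 epithelial or stromal markers, 9, 6 and 8 averaged under 1 CPM. Of 16 T cell markers 10 averaged under 1 CPM and CD2, CD5 and CD8A had no count in any of the 6 libraries. Whether the libraries of a group stem from separate cultures is not stated, and each p-value reflects only the spread among these libraries, which may be technical.

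The mRNA of SMARCA4, whose protein the degron acts on, was lower at 72 h. The gene (hg38, ENSG00000127616.20, chromosome 19, 10960932 to 11079426, plus strand) had 466, 465 and 490.1 CPM in GFP low libraries at 72 h, against 579.6, 575 and 614 CPM at 24 h. All 3 libraries at 72 h lay below all 3 at 24 h. The log2 fold change was -0.32 ± 0.03 (SE; adjusted p = 5.88e-09 by edgeR's quasi-likelihood test, adjusted after Benjamini and Hochberg over all 16474 tested genes, as is every adjusted p below). At 48 h the level was 473, 472 and 501 CPM, and 72 h against 48 h gave -0.03 ± 0.03 (adjusted p = 0.579). Once a trend on exon length was taken out of each library, the 72 h against 24 h value was -0.07 and no longer passed (adjusted p = 0.0961), though it did where library sets were blocked as well. These mRNA values say nothing of the protein.

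Most tested genes changed between these groups, and mostly by small amounts. Of 16474 tested genes, 9403 (57.1%) passed the test: 4876 (29.6%) rose and 4527 (27.5%) fell. The median size of a called change was 0.392 on the log2 scale. At least 2-fold changes were found for 582 genes that rose (3.53%) and 537 that fell (3.26%), and 10066 genes (61.1%) had no overlap between the 3 and 3 libraries. The earlier step held more calls than the later one. In GFP low cells at 48 h against 24 h, 4241 genes rose (25.7%) and 4132 fell (25.1%), and at 72 h against 48 h 2286 rose (13.9%) and 2067 fell (12.5%). After removal of the exon length trend 4293 genes rose and 5056 fell, and the at least 2-fold changes were 183 up and 1238 down. In that fit 1115 of the 1238 were genes that are not protein-coding or averaged under 1 CPM. Among 10117 protein-coding genes of at least 1 CPM, 130 rose and 129 fell by at least 2-fold, or 72 and 123 with the length trend removed.

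**Figure D1:**
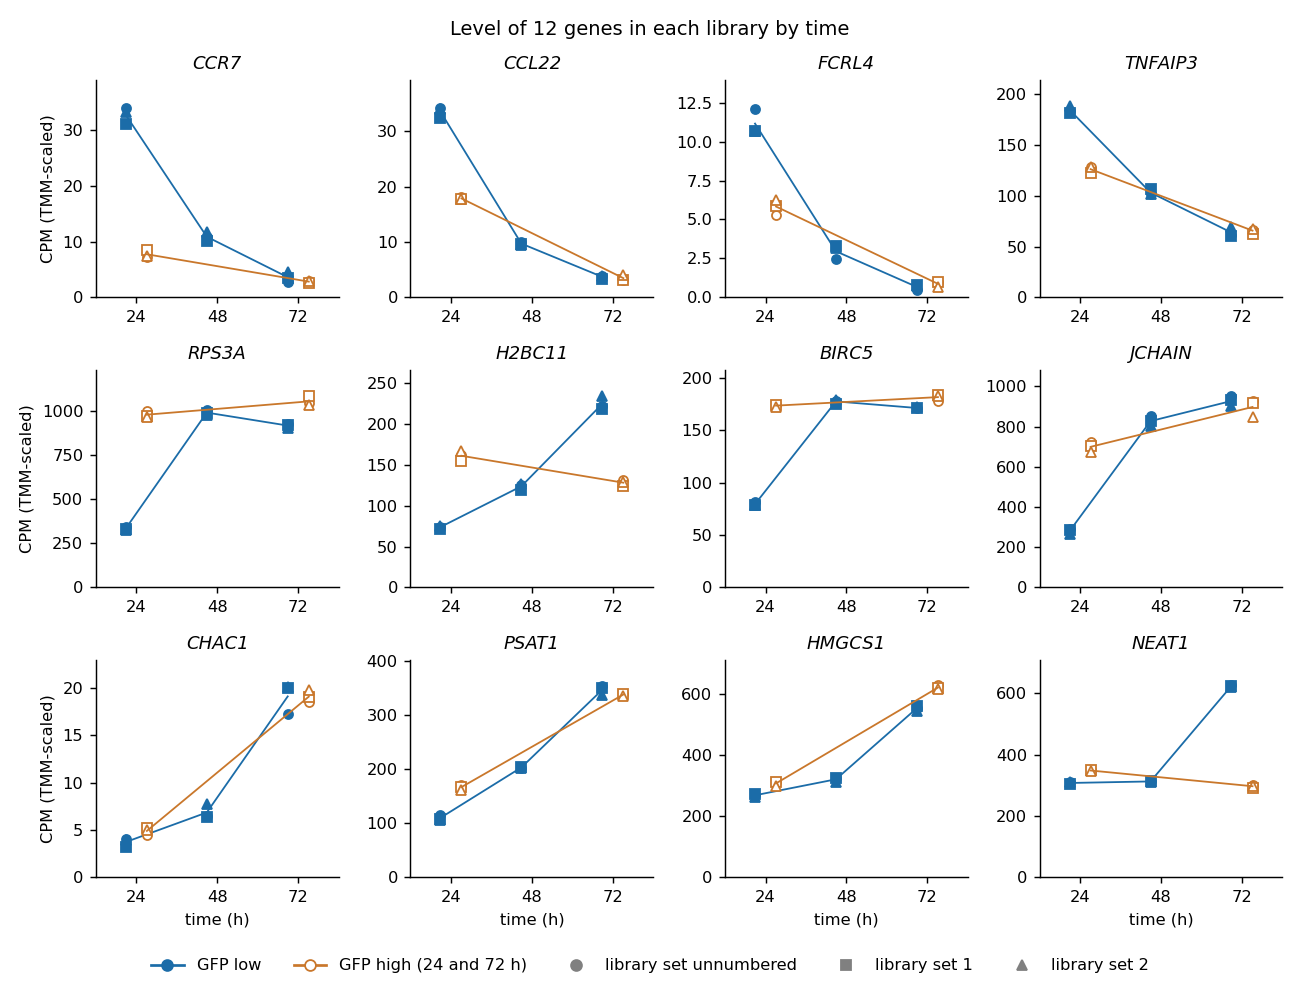
Level of 12 genes in every library, in CPM, by time; filled blue points are GFP low and open orange points GFP high libraries (drawn at 24 and 72 h), marker shapes give the library set, and lines join group means. In GFP low cells CCR7 sits at 2.83 to 4.52 CPM at 72 h against 31.0 to 33.9 CPM at 24 h. In the same cells RPS3A is highest at 48 h (976 to 1003 CPM, against 901 to 926 CPM at 72 h), and NEAT1 rises only after 48 h.

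Among the genes that fell most were surface receptors and chemokines of activated B cells. FCRL4 (ENSG00000163518.11, chromosome 1, 157573747 to 157598085, minus strand), an Fc receptor-like protein of a tissue-resident memory B cell subset, had 0.462, 0.82 and 0.737 CPM in GFP low libraries at 72 h, against 12.1, 10.7 and 10.7 CPM at 24 h. No library at 72 h reached 1 CPM and none at 24 h was below 10, and the log2 fold change was -4.05 ± 0.19 (adjusted p = 5.21e-14). CCR7 (ENSG00000126353.3, chromosome 17, 40553769 to 40565472, minus strand), a chemokine receptor for homing to T cell areas, had 2.83, 3.54 and 4.52 CPM in GFP low libraries at 72 h, against 33.9, 31.05 and 33.2 CPM at 24 h. The groups did not overlap and the fold change was -3.15 ± 0.10 (adjusted p = 1.29e-16). Its level at 48 h lay between, at 10.9, 10.1 and 11.7 CPM. CCL22, a chemokine that draws T cells to activated B cells, had 3.85, 3.39 and 3.901 CPM in GFP low libraries at 72 h, against 34.2, 32.5 and 34.02 CPM at 24 h. Again all libraries at 72 h lay far below those at 24 h (-3.17 ± 0.07, adjusted p = 3.40e-19). CCL5, another chemokine, changed by -2.83 ± 0.15, and VCAM1, an adhesion molecule, by -2.35 ± 0.15. Also among the genes that fell most were the chloride channel protein CLIC2 (-3.69 ± 0.28), the claudin CLDN16 (-3.35 ± 0.27), the scaffold AHNAK (-3.25 ± 0.17), CFAP43 of the cilium axoneme (-2.72 ± 0.24), the kinase ALPK2 (-2.52 ± 0.14) and SMIM38 (-2.44 ± 0.31). Each of these was under 10 CPM in all 6 libraries. The noncoding MIR663AHG passed too, at 0.893, 1.19 and 1.24 CPM in GFP low libraries at 72 h, against 33.2, 1.57 and 1.42 CPM at 24 h, but its value of -3.42 ± 0.81 rests on 1 library: without the unnumbered library at 24 h it was -0.42 (adjusted p = 0.203).

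FCRL4 was not alone in its gene cluster. FCRL1, FCRL2, FCRL3, FCRL4 and FCRL5 lie next to each other on chromosome 1, between 157513377 and 157820120 in hg38, and encode receptors that tune signalling of the B cell antigen receptor. All 5 fell. FCRL3, the one with the highest level, had 11.97, 12.5 and 12.5 CPM in GFP low libraries at 72 h, against 61.05, 60.2 and 60.97 CPM at 24 h (-2.30 ± 0.04, adjusted p = 1.55e-21). The values of FCRL1, FCRL2 and FCRL5 were -2.33 ± 0.22, -2.27 ± 0.25 and -1.81 ± 0.22, with a wider SE than that of FCRL3. FCRL1 missed the rule for the genes that fell most, a mean of at least 1 CPM and no overlap between libraries. Levels of FCRL1 and FCRL5 are not given here. FCRL2 was near the floor, at 0.493, 0.224 and 0.381 CPM in GFP low libraries at 72 h, against 2.01, 1.93 and 1.54 CPM at 24 h. FCRLA and FCRLB, relatives that lie apart from them on the same chromosome, between 161706972 and 161728143, did not fall, at 0.14 ± 0.03 and 0.39 ± 0.13. These small rises did not pass with the length trend removed (0.02 and 0.19), and that of FCRLB was also lost with no filter on low counts and without the set 1 library of either time. In GFP high cells the same 5 genes gave -0.99 ± 0.19, -1.68 ± 0.22, -1.18 ± 0.03, -2.79 ± 0.19 and -1.40 ± 0.24 from FCRL1 to FCRL5. FCRL1, FCRLA and FCRLB were picked after their values were seen, to complete the family.

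Among the genes that rose most were small noncoding RNAs, described below, and B cell and stress genes. VPREB1, a part of the surrogate light chain of precursor B cells, had 6.25, 6.18 and 6.11 CPM in GFP low libraries at 72 h, against 1.05, 1.25 and 1.13 CPM at 24 h (2.44 ± 0.11, adjusted p = 3.07e-14). JCHAIN, which joins antibody monomers, had 950.4, 930.0 and 901 CPM in GFP low libraries at 72 h, against 288, 286 and 266 CPM at 24 h. Its libraries at 72 h were all above those at 24 h, with a change of 1.73 ± 0.04 (adjusted p = 8.19e-20). The level was already 851, 828 and 802 CPM at 48 h. SH2D1A, the adaptor of SLAM family receptors, had 67.3, 68.1 and 63.97 CPM in GFP low libraries at 72 h, against 20.9, 20.2 and 18.6 CPM at 24 h (1.74 ± 0.04). The membrane protein MLC1 (2.89 ± 0.19), DBNDD1 (2.87 ± 0.16), the mitochondrial glycerol-3-phosphate dehydrogenase GPD2 (1.72 ± 0.15), SH3D19 (1.76 ± 0.30) and the kappa light chain segment IGKV1-8 (2.43 ± 0.29) rose as well. Each of these was under 10 CPM in all 6 libraries, and all but GPD2 averaged under 1 CPM at 24 h. SH3D19 overlaps the far more abundant RPS3A, which lies on the other strand and also rose, and the strand setting of the counts is not stated. The IGKV1-8 value was 1.60 with the length trend removed. SH2D1A is also on the list of T cell markers. Of 16 listed, 9 passed the filter on low counts, 5 rose and 0 fell, or 2 and 1 with the length trend removed and likewise 2 and 1 between 48 and 72 h. Their summed level was 109 to 111 CPM at 72 h and 47.8 to 48.7 CPM at 24 h, most of it SH2D1A at 72 h, while CD3E, CD3G and CD28 averaged under 1 CPM. LCK, a kinase of T cells that some B cell tumours express, had 13.9, 13.9 and 15.4 CPM in GFP low libraries at 72 h, against 5.83, 5.64 and 7.45 CPM at 24 h (1.17 ± 0.09).

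Genes of protein synthesis rose together. All 76 cytosolic ribosomal protein genes passed the filter, 76 rose and 0 fell, with a median log2 fold change of 0.73 against 0.01 over all tested genes. RPS3A, a protein of the small subunit, had 926, 919.7 and 901 CPM in GFP low libraries at 72 h, against 343, 331 and 327 CPM at 24 h. The groups were far apart (1.46 ± 0.02, adjusted p = 4.59e-22), and at 48 h the level was 1003, 987 and 976 CPM. RPS18 changed by 1.17 ± 0.01, RPL9 by 1.11 ± 0.03 and RPL4, the member with the highest level, by 0.46 ± 0.02. Over the whole list the summed level was 68013 to 69358 CPM at 72 h and 41465 to 42521 CPM at 24 h in GFP low cells, against 69056 to 69943 CPM and 67635 to 68574 CPM in GFP high cells. The 3 GFP low libraries at 24 h were thus the low ones. From 48 to 72 h, 59 members rose and 2 fell (median 0.15), and RPS3A was 1 of the 2 that fell (-0.11 ± 0.02). With the length trend removed 75 rose and 0 fell at 72 h against 24 h, with a median of 0.57. Many of these genes have near-identical processed copies in the genome, so that the count of a single member is uncertain.

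Factors of translation moved the same way in part. Of 32 listed, 31 passed the filter, 26 rose and 4 fell, with a median of 0.40, or 12 and 2 from 48 to 72 h. The elongation factors EEF1A1, which brings aminoacyl-tRNA to the ribosome, and EEF1B2, which recharges it with GTP, gave 0.75 ± 0.01 and 1.08 ± 0.02, while the initiation factor EIF5B fell (-0.49 ± 0.03). Of 30 nucleolar factors of ribosome assembly 11 rose and 10 fell, shares near those of all tested genes, or 12 and 14 with the length trend removed and 2 and 7 from 48 to 72 h. NPM1, the nucleolar chaperone, rose (0.59 ± 0.02), and NHP2 of the snoRNA complexes rose (0.86 ± 0.04, or 0.47 with the length trend removed). UTP20 and the RNA polymerase I subunit POLR1A fell (-0.50 ± 0.02 and -0.48 ± 0.03, or -0.31 and -0.22 with that trend removed). Of 30 genes of MYC and its network, 20 rose and 5 fell, with a median of 0.29, but from 48 to 72 h 4 rose and 9 fell. MYC itself, the factor translocated in Burkitt lymphoma, had 497, 481 and 522 CPM in GFP low libraries at 72 h, against 460.2, 439 and 471 CPM at 24 h. The difference was small (0.13 ± 0.04, adjusted p = 0.00606) and no longer passed without the 24 h library of set 1 (0.10, adjusted p = 0.0599).

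The respiratory chain rose through its nuclear genes. Of 50 such genes 44 rose and 1 fell (median 0.65). UQCRQ of complex III had 71.6, 70.2 and 69.8 CPM in GFP low libraries at 72 h, against 35.8, 33.6 and 34.6 CPM at 24 h (1.02 ± 0.04, adjusted p = 3.42e-16). COX7B of complex IV and NDUFA4, a subunit tied to the same complex, gave 1.01 ± 0.05 and 0.97 ± 0.03. SDHA of complex II was the one that fell (-0.14 ± 0.04, adjusted p = 0.00917), a call that was lost with the length trend removed (0.02) or with no filter on low counts. From 48 to 72 h, 23 rose and 1 fell, with a median of 0.08. The length-corrected fit gave 42 that rose and 3 that fell, with a median of 0.40. The 13 protein-coding genes of the mitochondrial genome behaved otherwise: 13 rose and 0 fell, with a median of 0.33, but with the length trend removed all 13 fell, with a median of -0.29. MT-CO2 of complex IV had 4296, 4258 and 4322 CPM in GFP low libraries at 72 h, against 2988, 2903 and 2955 CPM at 24 h (0.54 ± 0.02, or -0.11 with the trend removed), and its level at 48 h was 2756, 2776 and 2717 CPM. Members fell first and rose later: 0 rose and 12 fell at 48 h against 24 h, and 12 rose and 0 fell at 72 h against 48 h, with a median of 0.58. MT-CO1, the most abundant, was all but level (0.08 ± 0.03) and did not pass when library sets were blocked (adjusted p = 0.598) or without the 24 h library of set 1 or the 72 h library of the unnumbered set. Of 28 tested genes of glycolysis and hypoxia, 15 rose and 3 fell, or 8 and 6 from 48 to 72 h and 16 and 1 with the length trend removed. Values were 0.59 ± 0.02 for GAPDH, or 0.37 with that trend removed, 0.74 ± 0.02 for LDHA and 1.11 ± 0.05 for DDIT4, an inhibitor of mTORC1.

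**Figure D2:**
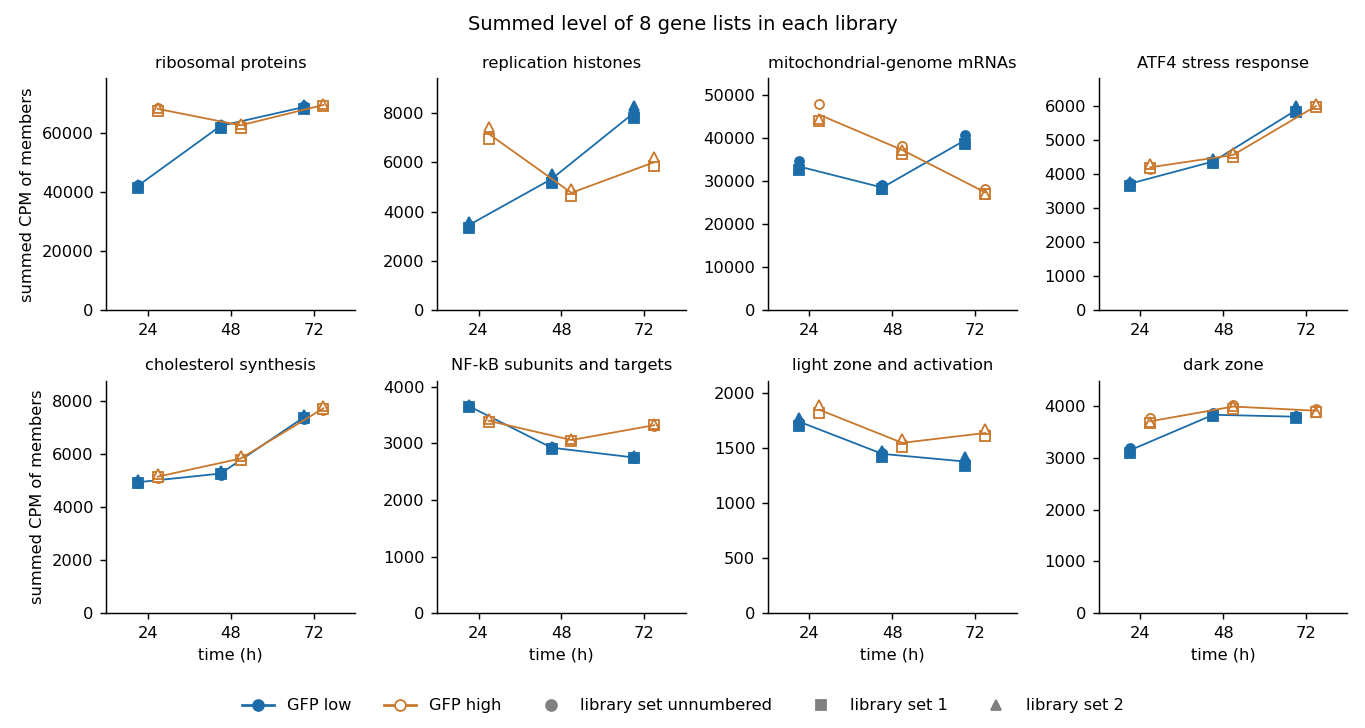
Summed CPM of the tested members of 8 gene lists in every library by time; filled blue points are GFP low and open orange points GFP high libraries, marker shapes give the library set, and lines join group means. In GFP low cells the ribosomal protein sum is 41465 to 42521 CPM at 24 h and 68013 to 69358 CPM at 72 h, while the stress response and cholesterol sums climb in both kinds of cell.

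Replication histones had the highest median of all lists, though with the length trend removed the integrated stress response was above them (0.82 against 0.64). Their mRNAs are made in S phase and end in a stem-loop in place of a poly(A) tail, so libraries made by removing ribosomal RNA retain them. Of 57 listed, 51 passed the filter on low counts, 49 rose and 0 fell, with a median of 1.22. H2BC11, a core histone H2B, had 222, 218 and 234 CPM in GFP low libraries at 72 h, against 74.2, 71.96 and 75.4 CPM at 24 h. All libraries at 72 h lay above all at 24 h (1.61 ± 0.03, adjusted p = 7.29e-20), and the level at 48 h was 125, 119.8 and 126 CPM. H2AC6 of the H2A family had 132, 129 and 138 CPM in GFP low libraries at 72 h, against 42.1, 43.1 and 44.4 CPM at 24 h (1.62 ± 0.05). The linker histone H1-5, the member with the highest level, had 658, 646 and 703 CPM in GFP low libraries at 72 h, against 222, 213 and 230.3 CPM at 24 h (1.59 ± 0.04). Members kept rising from 48 to 72 h, when 46 rose and 0 fell, with a median of 0.68. In the length-corrected fit 46 rose and 0 fell at 72 h against 24 h, with a median of 0.64, and the value of H1-5 was 0.99. Histone genes are near-identical within a family, so the count of a single member is uncertain.

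Promoters of many replication histones, most of all H2B genes, carry an octamer, the site that the factor OCT1 binds in S phase. Sequence for 46 of the 51 tested members was found in RefSeq (GRCh38.p14). In the 250 bases before the start, 21 of the 46 promoters (45.65%; 11 of 14 of H2B genes) held ATTTGCAT on either strand, against 573 of 35116 promoters (1.632%) in the whole table. A list of histone genes would be expected to hold this site often, so the excess is no result of these data. Of the 21, 20 rose, but so did 49 of all 51 tested members, so the octamer does not set these genes apart within the list. The stretches below, shown because their genes are among those that rose and the match lies outside annotated exons, run 5′ to 3′ on the gene's strand with the octamer in capitals: H2BC11 at chr6:27132810-27132867 (minus strand), H2AC6 at chr6:26124017-26124074 (plus strand) and H2AC4 at chr6:26033704-26033761 (minus strand).
H2BC11: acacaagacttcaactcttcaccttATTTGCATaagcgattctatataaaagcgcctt
H2AC6: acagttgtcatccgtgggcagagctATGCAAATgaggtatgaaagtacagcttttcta
H2AC4: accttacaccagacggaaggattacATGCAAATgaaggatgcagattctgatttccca
The octamer starts 47 bases before the start of H2BC11, 130 before that of H2AC6 and 118 before that of H2AC4, and is on the opposite strand in the H2A genes. H2AC4, picked for its promoter after its value was seen, had 44.7, 41.8 and 47.98 CPM in GFP low libraries at 72 h, against 14.8, 15.3 and 16.2 CPM at 24 h (1.54 ± 0.06, length-corrected 0.80). A match describes these letters only.

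Genes of the cell cycle split. Of 54 genes of G2 and mitosis, 31 rose and 16 fell, with a median of 0.22. BIRC5, the survivin protein of the dividing spindle, had 171, 171 and 172 CPM in GFP low libraries at 72 h, against 81.1, 78.9 and 78.2 CPM at 24 h (1.11 ± 0.02, adjusted p = 5.10e-20), and CKS2 and CKS1B, small partners of the cyclin-dependent kinases, gave 1.20 ± 0.04 and 1.03 ± 0.04. MKI67, which encodes the proliferation antigen Ki-67, fell instead, with 849, 828 and 840.4 CPM in GFP low libraries at 72 h, against 1213, 1147 and 1163 CPM at 24 h (-0.48 ± 0.02), and so did the kinetochore protein CENPF (-0.45 ± 0.02). With the length trend removed the values were 0.52 for CKS2, -0.26 for MKI67 and -0.24 for CENPF, and 27 members rose and 15 fell, with a median of 0.10. From 48 to 72 h, 11 rose and 9 fell. Of 49 genes of S phase 25 rose and 10 fell, with a median of 0.11. PCNA, the sliding clamp of DNA polymerases, rose (0.72 ± 0.02), as did GINS2 (0.95 ± 0.03) and the licensing inhibitor GMNN (0.77 ± 0.04), while the helicase subunit MCM5 (-0.31 ± 0.04) and CLSPN of the replication checkpoint (-0.48 ± 0.03) fell. Taking out the length trend left PCNA at 0.32, CLSPN at -0.30 and MCM5 at -0.21. From 48 to 72 h, when histones rose, 0 of the 49 S phase genes rose and 28 fell, with a median of -0.10. Of 20 tested CDK inhibitors, G1 cyclins and genes of quiescence 12 rose and 6 fell, or 8 and 5 from 48 to 72 h. They include the inhibitor CDKN1A (0.98 ± 0.05), cyclin CCND3 (0.71 ± 0.04) and the kinase CDK4 (0.57 ± 0.03), which all rose.

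Dark zone genes were mostly higher at 72 h. Of 23 genes 20 rose and 3 fell (median 0.58), and the proliferation genes BIRC5 and MKI67 are members. BACH2, a repressor that holds back plasma cell fate, had 11.8, 13.9 and 15.1 CPM in GFP low libraries at 72 h, against 6.31, 4.52 and 5.73 CPM at 24 h. All libraries at 72 h lay above those at 24 h (1.30 ± 0.15, adjusted p = 1.73e-07). The TNF receptor CD27 changed by 1.17 ± 0.05, or 0.75 with the length trend removed, and CXCR4, the receptor that keeps B cells in the dark zone, by 0.58 ± 0.03, or 0.32 in that fit. Most of this lay before 48 h, since 5 members rose and 8 fell from 48 to 72 h. In the length-corrected fit 21 rose and 2 fell at 72 h against 24 h, with a median of 0.57.

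Light zone and NF-kB genes went the other way. Of 38 NF-kB subunits and targets listed 36 passed the filter, 4 rose and 31 fell, with a median of -0.46. TNFAIP3, the A20 enzyme that shuts NF-kB signalling off and is itself a target, had 61.5, 60.5 and 69.2 CPM in GFP low libraries at 72 h, against 184, 181 and 188 CPM at 24 h. The change at 72 h against 24 h was -1.53 ± 0.04 (adjusted p = 3.87e-18), and at 48 h the level lay between, at 101, 107 and 101 CPM. IRF4, a factor of activated B cells, had 1.94, 1.42 and 1.45 CPM in GFP low libraries at 72 h, against 5.38, 5.25 and 5.399 CPM at 24 h (-1.74 ± 0.14). LTB, the lymphotoxin beta chain, had 14.2, 14.5 and 16.01 CPM in GFP low libraries at 72 h, against 19.9, 20.9 and 21.6 CPM at 24 h (-0.48 ± 0.06, length-corrected -0.85). The chemokines CCL4 and CCL3 did not follow: CCL4 rose by 0.54 ± 0.08, or 0.22 with the length trend removed, and CCL3 had 0.16 ± 0.05 (adjusted p = 0.0107), a call that turned to -0.22 with that trend removed and was lost without the 24 h library of set 1. Between 48 and 72 h, 4 members rose and 18 fell, with a median of -0.12. The length-corrected fit had 1 that rose and 30 that fell at 72 h against 24 h, with a median of -0.60.

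Of 22 tested light zone markers and activation genes 3 rose and 17 fell, with a median of -0.54. The adaptor TRAF1, which relays CD40 signals, had 58.4, 57.7 and 59.8 CPM in GFP low libraries at 72 h, against 139, 144 and 148 CPM at 24 h (-1.30 ± 0.04, adjusted p = 1.35e-17). The costimulatory ligand CD86 gave -1.04 ± 0.04 and the low-affinity IgE receptor FCER2, or CD23, -1.10 ± 0.05. Both lists share members, CCL22 among them. IL4R, the interleukin-4 receptor chain, rose in GFP low cells (0.72 ± 0.05). Without the length trend 4 rose and 18 fell (median -0.76), and between 48 and 72 h 6 rose and 12 fell. Of 15 tested memory and naive B cell genes 3 rose and 10 fell, with a median of -0.27, or -0.46 length-corrected, and 3 rose and 7 fell between 48 and 72 h.

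Of the 36 tested NF-kB members, 29 had a promoter in RefSeq. The core site GGGA, then any base, then TTTCC, searched on both strands in the 250 bases before the start, was in 5 of them (17.24%), LTB, NFKB1, NFKBIA, REL and TNFAIP3, against 185 of 35116 (0.527%). Such a list, made of NF-kB subunits and targets, would be expected to hold this site often, so the excess is no result of these data. All 5 fell, as did 31 of the 36 tested members, so the site does not set them apart within the list. The value of REL, picked for this site, was -0.37 ± 0.03, or -0.14 with the length trend removed. The stretch from NFKBIA, which encodes the NF-kB inhibitor IkB alpha, lies at chr14:35404796-35404855 (minus strand) and is shown as the one of these whose match lies outside annotated exons, with the site in capitals on the opposite strand, 81 bases before the start.
NFKBIA: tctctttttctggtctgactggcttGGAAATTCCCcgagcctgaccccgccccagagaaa
NFKBIA, taken for its promoter after its value was seen, had 100.3, 95.3 and 102 CPM in GFP low libraries at 72 h, against 118, 115 and 118 CPM at 24 h (-0.24 ± 0.03, length-corrected -0.47). The groups did not overlap, and the gene fell by a like amount in GFP high cells (-0.26 ± 0.03).

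Antigen presentation and interferon genes were lower at 72 h. Of 16 genes of MHC class II and its regulators 3 rose and 13 fell, with a median of -0.35. CIITA, the coactivator that switches class II genes on, had 156, 159 and 165 CPM in GFP low libraries at 72 h, against 272, 278 and 290.0 CPM at 24 h (-0.81 ± 0.03, length-corrected -0.54). HLA-DOA changed by -0.63 ± 0.03, HLA-DQA1 by -0.61 ± 0.04 and CD74, the invariant chain, by -0.50 ± 0.03. The ubiquitin ligase MARCHF1, which removes class II molecules from the surface, fell most (-2.19 ± 0.13). HLA-DRA rose (0.24 ± 0.02), but was at -0.20 with the length trend removed, when 0 members rose and 14 fell. Of 15 class I and peptide loading genes 1 rose and 11 fell, among them HLA-B (-0.63 ± 0.03) and HLA-F (-0.79 ± 0.06), while the immunoproteasome subunit PSMB8 rose (0.46 ± 0.04). HLA genes vary between cell lines and resemble each other, so single counts depend on how reads were assigned. Of 43 interferon-stimulated genes listed 29 passed the filter, 1 rose and 19 fell, with a median of -0.61. SAMD9L, an antiviral gene, had 2.68, 2.83 and 2.69 CPM in GFP low libraries at 72 h, against 8.84, 9.87 and 8.36 CPM at 24 h (-1.72 ± 0.12). IFIT2 and IFIT3 gave -2.05 ± 0.20 and -1.97 ± 0.18 from levels under 4 CPM. ISG20 was the one that rose (0.46 ± 0.06). Between 48 and 72 h class II genes had 1 rise and 14 falls, class I genes 0 and 4, and interferon genes 2 and 7. The length-corrected fit gave class I genes 2 rises and 12 falls and interferon genes 2 and 22, and the block on library sets gave interferon genes 3 and 20.

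The integrated stress response and cholesterol synthesis rose in GFP low cells and in GFP high cells as well. In the first, shortage of amino acids or other stress raises the factor ATF4, which turns on amino acid synthesis and transport. Of 31 listed 29 passed, 25 rose and 0 fell, with a median of 0.85. PSAT1, an enzyme of serine synthesis, had 354, 350.1 and 338 CPM in GFP low libraries at 72 h, against 116, 108 and 106 CPM at 24 h. The groups did not overlap (1.66 ± 0.03, adjusted p = 2.23e-20) and 48 h lay between, at 203, 205 and 203 CPM. CHAC1 (ENSG00000128965.13, chromosome 15, 40952962 to 40956512, plus strand), which degrades glutathione and is a target of ATF4, had 17.3, 20.004 and 20.1 CPM in GFP low libraries at 72 h, against 3.998, 3.25 and 3.94 CPM at 24 h (2.35 ± 0.09, adjusted p = 2.34e-15). ATF4 itself, added after its value was seen, had 634, 626 and 656 CPM in GFP low libraries at 72 h, against 358, 344 and 365 CPM at 24 h (0.85 ± 0.02). INHBE, a chain of activin E (1.93 ± 0.13), ATF3 (1.46 ± 0.20) and SESN2, an inhibitor of mTORC1 (1.15 ± 0.06), rose too. The later step was the larger, with 27 that rose and 0 that fell from 48 to 72 h and a median of 0.51, against 0.30 from 24 to 48 h. At 72 h over 24 h, 26 rose and 2 fell with the length trend removed, with a median of 0.82, and 26 rose and 1 fell with the library set as a block. In GFP high cells at 72 h against 24 h, where 13.9% of all tested genes rose and 15% fell, 26 rose and 0 fell, with a median of 0.64. CHAC1 was at 18.5, 19.01 and 19.8 CPM in GFP high libraries at 72 h and at 4.44, 5.22 and 5.05 CPM at 24 h. None of the 26 members with a promoter in RefSeq held the response element TGATGNAAT in the 250 bases before the start, against 0.888% of all promoters. At so low a share a list of this size would be likely to hold none. The search covered 1 consensus in those bases only, so the absence is no result about these genes.

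Cholesterol synthesis is switched on by SREBP factors when sterols are scarce. Of 32 listed genes 30 passed, 28 rose and 0 fell, with a median of 0.43. HMGCS1, the enzyme that makes HMG-CoA, had 557, 561 and 547 CPM in GFP low libraries at 72 h, against 271, 273 and 263 CPM at 24 h. All libraries at 72 h lay above those at 24 h (1.05 ± 0.02, adjusted p = 3.40e-19), and the level at 48 h was 327, 324 and 313 CPM. INSIG1, the sterol sensor that holds SREBP back and is its target, gave 1.18 ± 0.02, FDPS 1.00 ± 0.02 and the desaturase SCD 0.89 ± 0.01. Most of this change came after 48 h, with 28 that rose and 0 that fell from 48 to 72 h and a median of 0.35. In GFP high cells 29 rose and 0 fell (median 0.46), and HMGCS1 was at 631, 619.7 and 616 CPM at 72 h and at 311, 314 and 299 CPM at 24 h. The sterol element TCACNCCAC was in 1 of 23 promoters, that of SREBF2, against 0.883% of all. A count of 1 among so few promoters is too small to compare with that share.

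**Figure D3:**
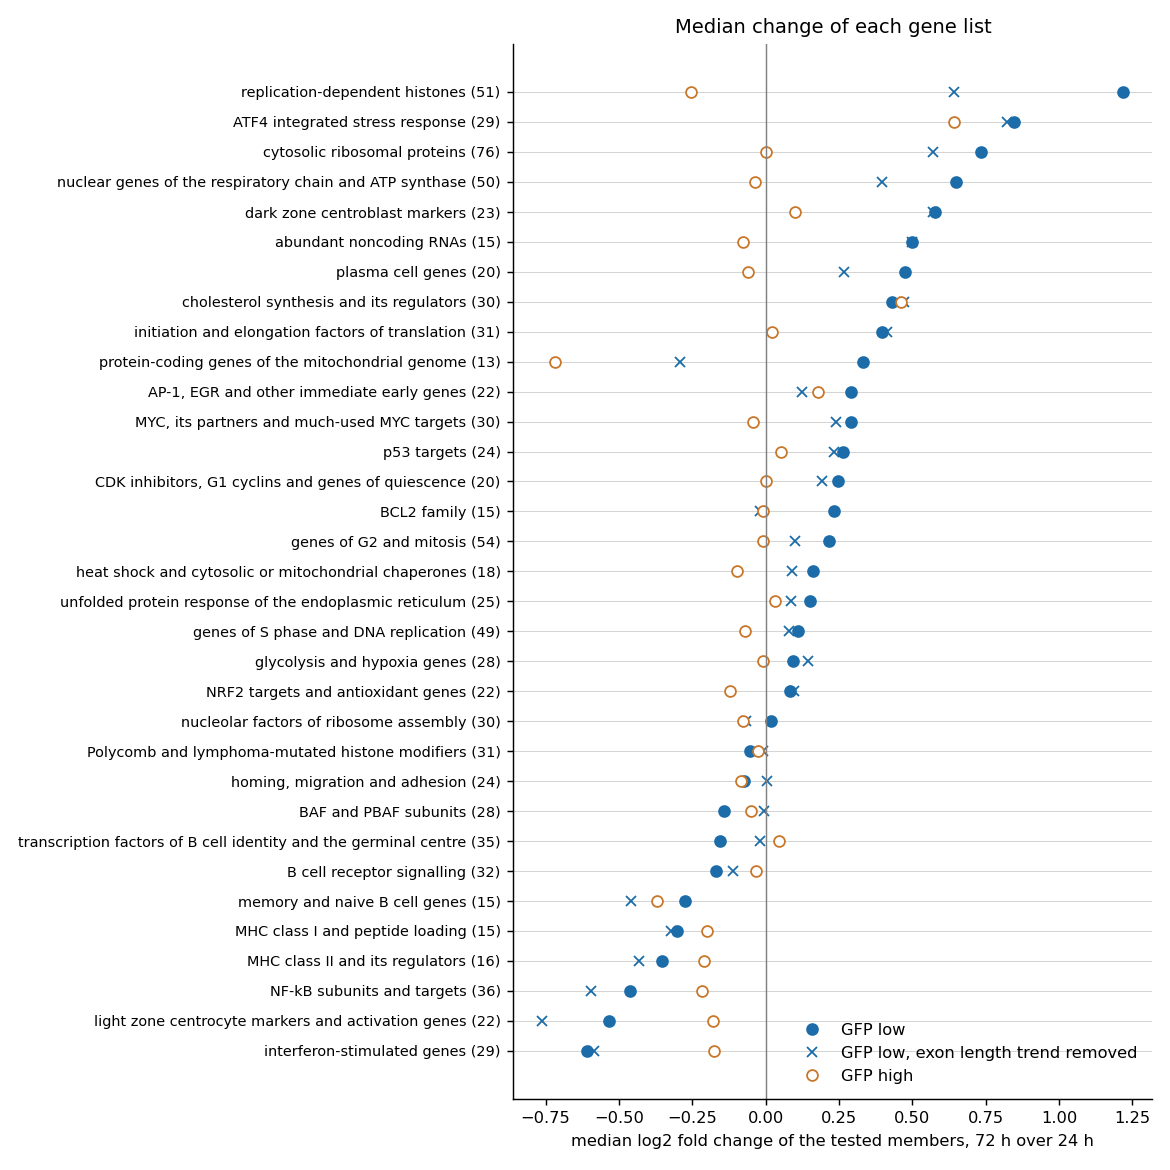
Median log2 fold change of the tested members of 33 gene lists, 72 h over 24 h, in GFP low cells (filled blue), in GFP low cells with the exon length trend removed (blue crosses) and in GFP high cells (open orange); the number of tested members follows each name. Histones have the highest median in GFP low cells (1.22, or 0.64 with the length trend removed, below the 0.82 of the stress response) and a negative one in GFP high cells (-0.25), while the stress response and cholesterol medians are positive in both.

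Transcription factors and receptors of B cells moved in both directions. Of 35 tested factors of B cell identity and the germinal centre 11 rose and 21 fell, with a median of -0.15, or 12 and 13 with a median of -0.02 once the length trend is removed, and 9 and 9 between 48 and 72 h. BCL6, the repressor that defines germinal centre B cells, had 417, 409.5 and 419 CPM in GFP low libraries at 72 h, against 317, 309 and 316 CPM at 24 h. All libraries at 72 h lay above those at 24 h (0.40 ± 0.02, adjusted p = 1.99e-13), while 48 h was at 318, 315 and 325 CPM, as at 24 h. ID3, which restrains the factor E2A and is often mutated in Burkitt lymphoma, had 33.2, 29.9 and 32.97 CPM in GFP low libraries at 72 h, against 11.4, 9.87 and 11.1 CPM at 24 h (1.57 ± 0.07). IRF8 rose (0.48 ± 0.02) and MEF2C (-0.51 ± 0.03) and PAX5 (-0.31 ± 0.03) fell. With the length trend removed MEF2C was at -0.30 and PAX5 at -0.14. NFATC2, a calcium-regulated factor, had 2.92, 2.83 and 2.83 CPM in GFP low libraries at 72 h, against 6.79, 6.49 and 7.66 CPM at 24 h (-1.29 ± 0.12). PRDM1, which drives plasma cell fate, had 54.6, 59.4 and 56.5 CPM in GFP low libraries at 72 h, against 70.005, 69.5 and 69.4 CPM at 24 h (-0.29 ± 0.04), and at 48 h stood higher than at either time (80.02, 77.9 and 77.01 CPM). Of 20 tested plasma cell genes 12 rose and 4 fell, with a median of 0.48. The length-corrected fit gave 12 and 6, with a median of 0.27, and 7 rose and 7 fell between 48 and 72 h. JCHAIN, XBP1 (0.81 ± 0.02) and CD38 (0.94 ± 0.04) rose, while SLAMF7 (-1.97 ± 0.07) and TNFRSF13B, or TACI (-1.03 ± 0.06), fell. Of 32 tested antigen receptor signalling genes 8 rose and 17 fell, or 9 and 8 between 48 and 72 h, with falls for the kinase SYK (-0.65 ± 0.02), the phosphatase INPP5D (-0.73 ± 0.03) and VAV2 (-0.74 ± 0.04) and a rise for the receptor chain CD79B (0.40 ± 0.04, or 0.13 with the length trend removed). Of the 9 B cell markers 4 rose and 4 fell, or 2 and 5 with the length trend removed and 3 and 3 between 48 and 72 h, among them MS4A1, or CD20, at 456, 433 and 428 CPM in GFP low libraries at 72 h, against 751, 738 and 721 CPM at 24 h (-0.75 ± 0.03). Of 24 tested homing and migration genes 8 rose and 11 fell, or 10 and 10 with the length trend removed and 4 and 11 between 48 and 72 h. Besides CCR7, the follicle receptor CXCR5 fell (-0.62 ± 0.05) and RGS13, a brake on chemokine receptors, rose (0.79 ± 0.04).

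Subunits of the BAF complexes went both ways. Of 28 tested 7 rose and 14 fell, with a median of -0.14, but with the length trend removed 9 rose and 9 fell, with a median of -0.01. SMARCA2, the alternative ATPase, had 50.2, 48.1 and 50.1 CPM in GFP low libraries at 72 h, against 66.3, 64.6 and 66.8 CPM at 24 h (-0.41 ± 0.03, or -0.15 with the trend removed). The large DNA-binding subunits ARID1A and ARID1B gave -0.43 ± 0.03 and -0.47 ± 0.02, or -0.19 and -0.09, and the adaptor BICRAL -0.41 ± 0.03. ACTL6A, an actin-related subunit, rose (0.38 ± 0.03), as did SMARCD2 (0.37 ± 0.04). Of 31 Polycomb genes and histone modifiers mutated in lymphoma 8 rose and 14 fell, or 10 and 11 with the trend removed. The acetyltransferase EP300 and the methyltransferase KMT2C, both encoded by long mRNAs, gave -0.62 ± 0.02 and -0.59 ± 0.02, or -0.41 and -0.19, and TET2, which oxidises methylcytosine, -0.64 ± 0.05, or -0.39. The DNA methyltransferase DNMT3A fell, with 1.17, 0.559 and 0.642 CPM in GFP low libraries at 72 h, against 2.46, 1.901 and 2.11 CPM at 24 h (-1.45 ± 0.25), and DNMT3B rose (0.75 ± 0.11). Between 48 and 72 h, 5 BAF subunits rose and 6 fell, with the same counts for Polycomb and modifier genes.

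Small noncoding RNAs had more calls in the later step than in the earlier one. Of 136 tested snoRNA and scaRNA genes, which guide chemical changes of ribosomal and spliceosomal RNA, 51 rose and 3 fell at 72 h against 24 h, with 16 and 9 from 24 to 48 h and 40 and 4 from 48 to 72 h. Of 80 snRNA genes 28 rose and 5 fell, with 6 and 1 in the earlier step and 24 and 3 in the later. Long noncoding classes had no such excess: of 872 lincRNA genes 134 rose and 78 fell from 24 to 48 h and 77 rose and 89 fell from 48 to 72 h, and of 1127 antisense genes 110 and 104, then 57 and 84. The annotation class misc_RNA, which holds RNY1 and RN7SL1 below, was mixed. Of its 99 tested genes 20 rose and 10 fell at 72 h against 24 h, with a median of -0.08. It had 7 and 1 from 24 to 48 h, then 17 and 12 from 48 to 72 h, with a median of -0.26 in the later step. RNU4-2, a U4 RNA of the spliceosome, had 5.73, 4.62 and 5.26 CPM in GFP low libraries at 72 h, against 0.962, 1.25 and 1.21 CPM at 24 h. The level at 48 h was 1.31, 0.873 and 1.297 CPM, as at 24 h. The change at 72 h against 24 h was 2.19 ± 0.16 (adjusted p = 8.39e-11), or 1.13 with the length trend removed. RNU4-1 (1.99 ± 0.20), RNU6ATAC of the minor spliceosome (2.62 ± 0.25) and the Y RNA RNY1 (2.18 ± 0.13) rose likewise, and had 0.93, 1.56 and 1.12 with the trend removed. RN7SL1, the RNA of the signal recognition particle, had 3912, 3824 and 3944 CPM in GFP low libraries at 72 h, against 1054, 1102 and 1458 CPM at 24 h (1.69 ± 0.13, or 0.76 with the trend removed). Such RNAs are short and have many copies, so that their counts depend on size selection and on how reads with several matches were assigned, which was not tested. The length trend was drawn over protein-coding genes, only 126 of them of up to 1000 bp. The corrected values of such short RNAs are therefore less certain. Of 20 abundant noncoding RNAs listed, which also serve as signs of RNA quality, 15 passed, 14 rose and 1 fell, with a median of 0.50, or 13 and 0 from 48 to 72 h. NEAT1, the scaffold of paraspeckles, had 629, 624 and 621 CPM in GFP low libraries at 72 h, against 309.9, 304 and 309 CPM at 24 h (1.02 ± 0.02, adjusted p = 2.46e-20) and 313, 315 and 310.4 CPM at 48 h. The snoRNA hosts GAS5 and SNHG29 gave 0.66 ± 0.02 and 0.85 ± 0.02, and MALAT1 was the one that fell (-0.37 ± 0.02, or -0.22 with the length trend removed).

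A relation to exon length ran through these results. Over the 10117 protein-coding genes that averaged 1 CPM or more, longer summed exons went with a lower log2 fold change in GFP low cells (72 h over 24 h), with a Spearman rho of -0.434. Genes share libraries and are no independent replicates, so this is a description. The median change was 0.75 for 126 genes of up to 1000 bp, 0.39 for 653 genes of 1000 to 2000 bp and 0.18 for 2464 genes of 2000 to 4000 bp. It was -0.02 for 4292 genes of 4000 to 8000 bp, -0.16 for 2224 genes of 8000 to 16000 bp and -0.25 for 358 longer genes. The relation was present at 48 h against 24 h (rho -0.43) and weaker at 72 h against 48 h (-0.122), and GFP high cells at 72 h against 24 h had 0.06. Without any 1 of the 6 libraries it was -0.448 to -0.414. Once the trend was removed, 6945 of the 9403 called genes were called in the same direction and 264 in the opposite one. RNA integrity was not measured in the files used here, and its part in the trend was not tested.

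**Figure D4:**
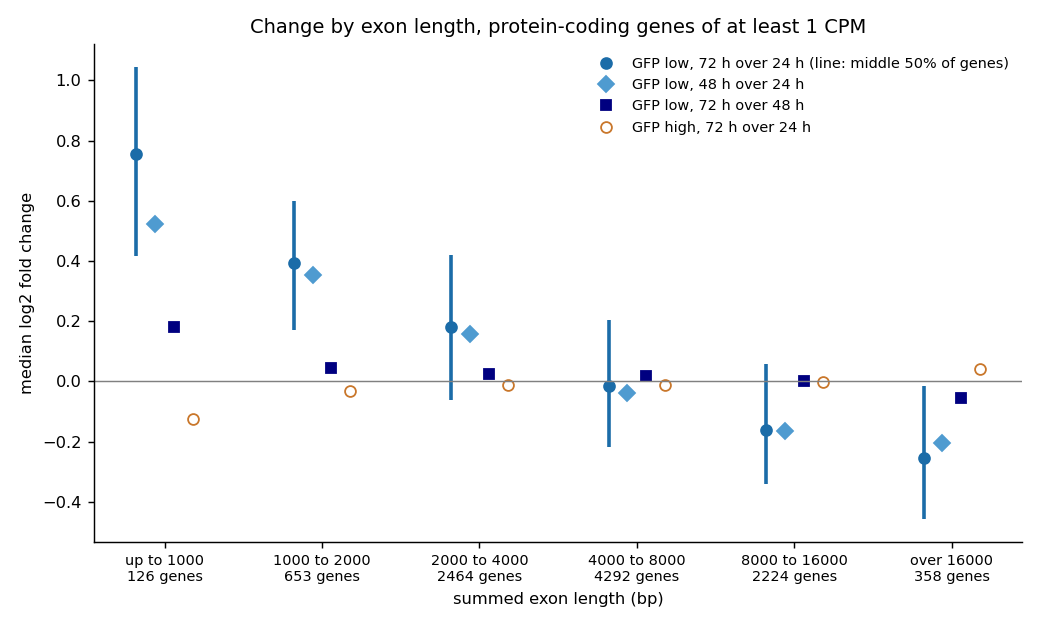
Median log2 fold change of protein-coding genes of at least 1 CPM in 6 classes of summed exon length (bp), for GFP low cells at 72 h over 24 h (lines span the middle 50% of genes), 48 h over 24 h and 72 h over 48 h, and for GFP high cells at 72 h over 24 h. In GFP low cells the median goes down through the classes, 0.75 in the shortest and -0.25 in the longest, while the 72 h over 48 h medians lie between -0.06 and 0.18 and those of GFP high cells between -0.13 and 0.04.

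The change over the same hours in GFP high cells was smaller in number of genes. There 2298 genes rose (13.9%) and 2468 fell (15%) at 72 h against 24 h. Of the 4876 genes that rose in GFP low cells 1303 also rose in GFP high cells, 26.7% of the first and 56.7% of the second list, and of the 4527 that fell 1486 also fell (32.8% and 60.2%). A test of the difference between both changes was passed by 6894 genes (41.8%), with 3661 (22.2%) higher and 3233 (19.6%) lower in GFP low cells. Differences of at least 2-fold were found for 345 genes that were higher (2.09%) and 495 that were lower (3%). All 76 ribosomal protein genes had a higher change in GFP low cells, with a median in GFP high cells of 0.00. Replication histones had 47 higher and 0 lower, and 0 rose and 43 fell in GFP high cells. For nuclear genes of the respiratory chain 45 were higher and 1 lower, for dark zone genes 17 and 2, for NF-kB genes 3 and 25 and for light zone genes 2 and 13. NF-kB and light zone genes also fell in GFP high cells, where 3 rose and 20 fell (median -0.22) and 3 rose and 12 fell (median -0.18). The stress response had 13 higher and 4 lower and cholesterol synthesis 12 and 5, with rises in both kinds of cell. Antigen presentation and interferon genes fell in both kinds of cell: in GFP high cells 0 class II genes rose and 14 fell, 0 class I genes rose and 11 fell, and 2 interferon genes rose and 14 fell. Their differences were 1 higher and 6 lower for class II, 3 and 8 for class I and 1 and 9 for interferon genes.

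Single genes differed in several ways. H2BC11 had 218 to 234 CPM in GFP low libraries at 72 h and 72.0 to 75.4 CPM at 24 h, and 131, 125 and 129 CPM and 162, 155 and 167 CPM in GFP high libraries at these times, a difference of changes of 1.94 ± 0.05 (adjusted p = 4.75e-18). H3C8 and H4C11 gave differences of 1.97 ± 0.07 and 1.97 ± 0.18. The haemoglobin chain HBD had 2.52, 2.35 and 2.12 CPM in GFP low libraries at 72 h and 1.02, 1.28 and 0.903 CPM at 24 h, against 1.37, 0.996 and 0.82 CPM and 3.29, 3.17 and 3.12 CPM in GFP high libraries. HBD is 1 of 2 erythroid markers that passed the filter of 7 listed. Both rose in GFP low cells, 1 with the length trend removed, while 0 rose and 1 fell between 48 and 72 h, and HBA1, HBA2, ALAS2 and AHSP had no count in the 6 GFP low libraries. Of the 4 tested myeloid markers 0 rose and 2 fell, or 0 and 1 between 48 and 72 h. Both tested epithelial or stromal markers fell, COL1A1 (-2.25 ± 0.14) and VIM (-1.95 ± 0.18), as both did between 48 and 72 h. The mitochondrial ribosomal RNAs MT-RNR1 and MT-RNR2 had differences of -3.87 ± 0.61 and -4.51 ± 0.55, but their level in GFP low cells was under 0.3 CPM in all 6 libraries and did not pass the test (0.27 ± 0.50 and -0.32 ± 0.48); in GFP high cells MT-RNR2 was at 14.1, 11.04 and 10.998 CPM at 72 h and 0.745, 0.44 and 0.766 CPM at 24 h. Ribosomal RNA was depleted from all libraries, so these levels depend on the depletion too. ATRN, a membrane protein, differed by -2.02 ± 0.26 in the same way, with no called change in GFP low cells (-0.34 ± 0.20). In RNA from bulk cells, fewer cells of a kind and less RNA per cell cannot be told apart.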

How the data were processed

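RNA from Raji cells was depleted of ribosomal RNA and sequenced in 18 libraries, 3 in each of 6 groups of GFP level and time. What the authors deposited are raw read counts, whole numbers summed over the exons of each gene; per the file headers the table has the layout of featureCounts. The submitters' processing notes name FastQC, STAR, featureCounts of Subread, R 4.2.1 and hg38. The annotation release, strand setting and handling of multiply mapped reads are not stated in these sources.

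Of the table's genes, 60707 were read, while ANK2 was left out because its entry spans 3 broken lines. Symbols came from the tables supplied with the data, for 60462 genes, and types from GENCODE release 29, for 58439. The model was fitted with edgeR 4.0.16 in R 4.3.3: filterByExpr kept 16474 genes, scaling was by TMM, and quasi-likelihood F tests ran on 6 group means with 12 residual degrees of freedom. A gene was called at a 2-sided adjusted p (Benjamini-Hochberg) under 0.05. SE is the log2 fold change's size divided by the root of F. The difference between GFP low and GFP high is an interaction contrast. CPM are TMM-scaled. Libraries of a group varied by a common biological coefficient of 3.49%, at which small differences pass. For the length-corrected fit, a lowess curve (span 0.3) of each library's log2 level on log2 exon length, drawn over protein-coding genes of at least 1 CPM, entered as an offset. The script was tested on simulated data. DESeq2 1.42.0 was an alternative.

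Members and the 38 gene lists were chosen with earlier results of these data known. Named genes are the 15 with the largest change in each direction among called genes of at least 1 CPM on average, with no overlap of libraries and no clone, LOC, LINC, antisense or pseudogene name, 8 in each direction for the difference between GFP low and GFP high, up to 4 called members in each direction and the most abundant member of each list, and 10 genes always taken; not all of them are described, and some genes are not reported here. Promoters are RefSeq's (GRCh38.p14).

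Libraries of a group differed by more than sampling noise (median chi-square over expected 1.47 to 3.40) and were kept as replicates. Deviations from group means correlated at 0.109 to 0.258 within the 3 library sets between GFP low cells at 24 and 72 h, so the sets, named in the column headers, pair the libraries; fits with the set as a block are alternatives.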

Additional observations from a re-analysis of the deposited data

Results flagged for a closer look

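The change from 24 to 72 h differed between GFP low and GFP high cells, by the test of the interaction in edgeR's quasi-likelihood model, for 3661 genes that changed more upward and 3233 that changed more downward in GFP low cells. The values that follow are log2 differences, GFP low minus GFP high. Among the genes named for their rank, they were positive for HBD (2.75), RNU6ATAC (2.64), RN7SL1 (2.12), MLC1 (2.06), RNU4-2 (2.00), H4C11 (1.97), H3C8 (1.97), H2BC11 (1.94), RNU4-1 (1.72), IGKV1-8 (1.65), JCHAIN (1.37), RNY1 (1.35), SH2D1A (1.27), SH3D19 (1.23), GPD2 (1.13), VPREB1 (0.89), DBNDD1 (0.84) and CHAC1 (0.39). They were negative for MT-RNR2 (-4.51), MT-RNR1 (-3.87), MIR663AHG (-3.81), CFAP43 (-2.37), CLIC2 (-2.06), ATRN (-2.02), ALPK2 (-1.92), SMIM38 (-1.90), CLDN16 (-1.86), AHNAK (-1.77), CCR7 (-1.71), FCRL4 (-1.26), VCAM1 (-1.13), CCL5 (-1.12), FCRL3 (-1.12), CCL22 (-0.83) and INHBE (-0.55). The difference of MIR663AHG rests on the unnumbered GFP low library at 24 h. Levels of MT-RNR1, MT-RNR2 and ATRN did not pass the test within GFP low cells. The causes were not tested.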

How the results depend on the processing

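At 72 h against 24 h in GFP low cells, the numbers of genes with a rise and with a fall stayed within 1.5 times of 4876 and 4527 under all alternatives: the library set as a replicate block (5459 and 4971), the exon length trend removed with or without the block, DESeq2's size factors, no filter, a mean of at least 1 CPM, only the 6 libraries compared (4677 and 4444), DESeq2's Wald test (4493 and 4149), and leaving out each library in turn (4497 to 4770 and 4070 to 4399). At least 2-fold changes moved more. They were 183 up and 1238 down with the length trend removed, 204 and 1289 with the block as well, and 263 and 168 at a mean of at least 1 CPM; leaving out 1 library gave 501 to 660 and 529 to 571. At 72 h against 48 h the block raised the number of genes that rose to 3440, and changed no other count over all genes by over 1.5 times. The relation to exon length was -0.28 over all tested genes. With the length trend removed, without and with the block, the sign turned for SDHA (0.015 and 0.016), MT-CO1 (-0.292 in both), MT-CO2 (-0.110 in both), MT-ATP6 (-0.196 and -0.193), CCL3 (-0.224 and -0.226) and HLA-DRA (-0.203 in both). Of the genes named in the text and examined under every alternative, the block ended the call of MT-CO1 only. The causes of the other moves were not tested. Depth limits the genes named below 1 CPM in a group, where few reads carry the value.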

Other observations

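Several further lists were counted at 72 h against 24 h in GFP low cells. Over all tested genes 29.6% rose and 27.5% fell, or 13.9% and 12.5% between 48 and 72 h. Among 10117 protein-coding genes of at least 1 CPM, 3886 rose and 3473 fell, or 3912 and 2962 with the exon length trend removed. Of 15 tested genes of the BCL2 family, which decide between survival and apoptosis, 9 rose and 5 fell, or 6 and 1 between 48 and 72 h. With the length trend removed 6 rose and 5 fell, near the shares of protein-coding genes. The killers BIK (1.16 ± 0.06, or 0.62 with the trend removed) and PMAIP1, or NOXA (0.64 ± 0.03, or 0.38), rose, while BCL2 itself had 20.2, 19.9 and 20.4 CPM in GFP low libraries at 72 h, against 32.5, 32.8 and 32.1 CPM at 24 h (-0.68 ± 0.04, adjusted p = 5.52e-12 by edgeR's quasi-likelihood test). Of 24 tested p53 targets 16 rose and 4 fell, with a median of 0.26, or 10 and 2 between 48 and 72 h. TP53INP1, which promotes autophagy and cell death, had 22.5, 22.9 and 22.6 CPM in GFP low libraries at 72 h, against 8.597, 8.72 and 7.86 CPM at 24 h (1.44 ± 0.06) and was already at 24.2, 23.995 and 22.96 CPM at 48 h. CDKN1A and SESN2 are members of that list as well.

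Of 22 tested immediate early genes 12 rose and 5 fell, at 72 h against 48 h 13 and 1. FOS of the AP-1 factor had 4.65, 4.06 and 4.73 CPM in GFP low libraries at 72 h, against 2.19, 2.23 and 2.299 CPM at 24 h (1.00 ± 0.14) and rose more in GFP high cells (-0.77 ± 0.20 for the difference, adjusted p = 0.00408). Of 25 genes of the unfolded protein response 15 rose and 5 fell, or 9 and 1 between 48 and 72 h and 15 and 3 with the length trend removed. Of 18 tested heat shock genes 10 rose and 2 fell, or 10 and 5 with the library set as a block and 0 and 5 between 48 and 72 h. HSPA8, the constitutive HSP70, was at 0.56 ± 0.01. Of 22 tested NRF2 and antioxidant genes 12 rose and 6 fell, or 5 and 4 between 48 and 72 h.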
